A study of Mus musculus with 6 samples.

Results

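The 9 genes that carry the insulin and insulin-like growth factor (IGF) signal into cells and on to the nucleus were followed in the mouse incisor: the ligand Igf1, the receptors Igf1r and Insr, the receptor substrates Irs1 and Irs2, the kinases Akt1 and Akt2, and the transcription factors Foxo1 and Foxo3. They were chosen by symbol for their place in the pathway, and all 9 were among the 23718 genes listed. The RNA came from 2 regions of the incisor, dissected from sections with a laser under the microscope. The mesenchymal stem cell (MSC) region came from 3 Gli1-CreER;tdT mice and the transit amplifying cell (TAC) region, where the progeny of the stem cells divide, from 3 Axin2-CreER;tdT mice. All 6 mice were labelled C57BL/6, where the methods speak of a mixed background, and were 1 month old and given tamoxifen the day before capture, so both groups carry a CreER driver and a red fluorescent reporter, and the mouse line cannot be told apart from the region. The captured regions are marked by a driver and not purified, so fewer cells of a type and less RNA per cell cannot be told apart. The comparison asks which genes of the pathway differ in level between the region of the stem cells and that of their dividing progeny.

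As background, IGF1, IGF2 and insulin bind the receptor tyrosine kinases encoded by Igf1r and Insr, and the activated receptors phosphorylate the adaptor proteins IRS1 and IRS2. These recruit phosphoinositide 3-kinase (PI3K), whose lipid product brings AKT kinases to the membrane, where they are activated. AKT phosphorylates FOXO transcription factors, which then leave the nucleus, so that genes switched on by FOXO in quiet or starved cells are turned down when the ligand is present. In many tissues FOXO factors in turn raise transcription of Insr and Irs2, and in skeletal and dental mesenchyme the pathway is known for promoting growth and division.

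The sequence before the start site is shown for the 2 receptor substrates, whose levels shifted most between library sets on the log2 scale, and for Akt1, the member whose groups did not overlap. Each run is the 250 bases before a RefSeq start site on build GRCm38.p6 (mm10), printed 5′ to 3′ on the strand of the gene, with motif matches in capitals. The Irs1 run lies at chr1:82291440-82291689, that of Irs2 at chr8:11008930-11009179 and that of Akt1 at chr12:112674885-112675134, all on the minus strand. RefSeq gives Akt1 another start, whose window at chr12:112674277-112674526 had 78.4% G and C and no match, and the window with a match is shown.
Irs1: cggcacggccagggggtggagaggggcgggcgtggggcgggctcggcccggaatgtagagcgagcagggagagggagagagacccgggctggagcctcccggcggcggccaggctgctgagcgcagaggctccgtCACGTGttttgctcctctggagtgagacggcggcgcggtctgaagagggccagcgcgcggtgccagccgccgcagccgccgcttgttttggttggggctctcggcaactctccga
Irs2: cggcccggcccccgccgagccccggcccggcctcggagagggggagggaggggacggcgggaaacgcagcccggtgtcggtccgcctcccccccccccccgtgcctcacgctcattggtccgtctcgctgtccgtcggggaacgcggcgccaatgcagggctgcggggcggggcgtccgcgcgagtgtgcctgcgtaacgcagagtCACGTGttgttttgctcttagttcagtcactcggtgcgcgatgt
Akt1: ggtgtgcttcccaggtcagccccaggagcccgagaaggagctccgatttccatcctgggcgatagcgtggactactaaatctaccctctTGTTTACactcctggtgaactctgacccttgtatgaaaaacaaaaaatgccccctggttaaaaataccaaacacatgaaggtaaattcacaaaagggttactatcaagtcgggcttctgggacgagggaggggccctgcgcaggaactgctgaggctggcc
The RefSeq table used here matched 8 of the 9 members, all but Insr, with 12 windows in all. The E-box CACGTG, which reads the same on both strands, was present in the Irs1 window, 115 bases before the start, and in the Irs2 window, 44 bases before it, and in no other member window. Of all 32851 promoter windows of that length, 6.02% held it. The FOXO core motif TGTTTAC, searched on both strands, was present once among the 12 windows, 161 bases before a start of Akt1, and in 3.17% of all windows. The E-box was chosen after the sequences had been read. The windows of Irs1 and Irs2 had 72.4% and 72.8% G and C, against a median of 52.4% over all windows.

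Coordinates are on mm10, and the 3 values given for a group are those of its replicates 1, 2 and 3 in that order. The values are normalized read numbers, in which a factor per library was divided out and gene length was not, so a gene can be compared between libraries but not with another gene. Estimated reads numbered 20203159 to 25567244 in replicates 1 and 2 of both groups, 59793645 in MSC replicate 3 and 108156380 in TAC replicate 3. The 9 members had between 111 and 22140 estimated reads in a library. Replicate 3 stood apart from replicates 1 and 2 in both groups, with 42.6% of listed genes without a read in MSC replicate 3 and 27.8% in TAC replicate 3, against 6.38% to 7.88% in the other libraries. Mitochondrial ribosomal RNA took 0.236% and 0.112% of reads in MSC and TAC replicate 3 and 8.28% to 9.07% elsewhere. Whether replicate 3 was prepared or counted in another way was not given in the sources used here and bears on all its values, so the members' differences are given within each set beside those over all samples. The summed level of 9 dental mesenchyme genes ran from 758 to 919 in MSC and from 575 to 626 in TAC, with Barx1 at no read in MSC replicate 3, and Gli1 itself, at 245 to 422 in MSC and 141 to 396 in TAC, overlapped but was higher in MSC in 3 of 3 pairs. Axin2, whose driver marks the TAC region, was 12.0 to 58.3 in MSC and 34.1 to 63.9 in TAC, higher in TAC in 2 of 3 pairs. The division marker Mki67 was 41.5 to 137 in MSC and 122 to 630 in TAC, higher in TAC in 3 of 3 pairs, and Top2a was 27.5 to 42.6 in MSC and 74.2 to 240 in TAC, without overlap. The 5 pericyte and smooth muscle markers, Rgs5, Cspg4, Acta2, Myh11 and Mcam, summed to 716 to 1428 in MSC and 90.3 to 108 in TAC, and 3 of them passed the adjusted threshold. The summed endothelial markers (148 to 210 in MSC and 74.7 to 95.3 in TAC) and Schwann cell markers (20.2 to 43.2 and 6.09 to 19.2) were also higher in every MSC library, and the 6 dental epithelium markers (30.2 to 31.9 and 50.5 to 91.3) in every TAC library, with 4 of the 6 at no read in MSC replicate 3. The 4 ameloblast genes, which mark enamel-forming epithelium, summed to 275 in MSC replicate 3 and to 2210 or more in each other library, and the 4 odontoblast genes to 2038 there and to 11255 or more elsewhere. The part of these cells in the results below was not tested.

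The ligand Igf1 (chr10:87858265-87937042, plus strand), a secreted growth factor, was 22.5, 24.8 and 3.89 in MSC against 6.55, 9.02 and 10.2 in TAC. MSC replicates 1 and 2 thus lay above every TAC library and MSC replicate 3 below them all. Group means were 17.1 ± 11.5 for MSC and 8.58 ± 1.86 for TAC (SD, n = 3 each), giving a log2 fold change, TAC minus MSC, of -0.60 (limma adjusted p 0.796, SE 0.68). Replicates 1 and 2 gave -1.50 and replicate 3 gave 1.19. Macrophages are a known source of Igf1, and the 8 macrophage and leukocyte markers summed to 77.6, 73.2 and 168 in MSC against 41.7, 44.1 and 104 in TAC, with Adgre1 and Fcgr1 at no read in MSC replicate 3. In replicates 1 and 2 both Igf1 and the list were higher in MSC than in TAC. In MSC replicate 3 Igf1 was at its lowest and the list at its highest. The part of these cells was not tested. The related ligand Igf2 was 558, 569 and 635 in MSC against 82.7, 80.4 and 137 in TAC, and was lower in TAC by the test (log2 fold change -2.59, limma adjusted p 0.0389, SE 0.33). That call was lost when replicate 1 or 2 of either group was left out (adjusted p 0.228 to 0.239) and without the variance trend (0.0733).

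Both receptors were lower in TAC than in MSC in every same-numbered pair, and neither passed the test over all 6 libraries. Igf1r (chr7:67952827-68233668, plus strand), the receptor for both IGF ligands, was 245, 227 and 88.6 in MSC against 173, 184 and 81.2 in TAC. The 4 libraries of replicates 1 and 2 fell into 2 levels by group, and both libraries of replicate 3 lay below all 4. The log2 difference, TAC minus MSC, came to -0.31 (limma adjusted p 0.883, SE 0.51), with a 95% interval from -1.50 to 0.89. It was -0.77 without MSC replicate 3 and turned to 0.071 without TAC replicate 3. Insr (chr8:3122061-3279617, minus strand), the insulin receptor, was 58.7, 66.7 and 32.6 in MSC against 43.0, 44.8 and 21.7 in TAC. The log2 fold change came to -0.52 (limma adjusted p 0.685, SE 0.41), and it was nearly the same in replicates 1 and 2, at -0.50, and in replicate 3, at -0.56. For Igf1r these were -0.40 and -0.12.

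**Figure D1:**
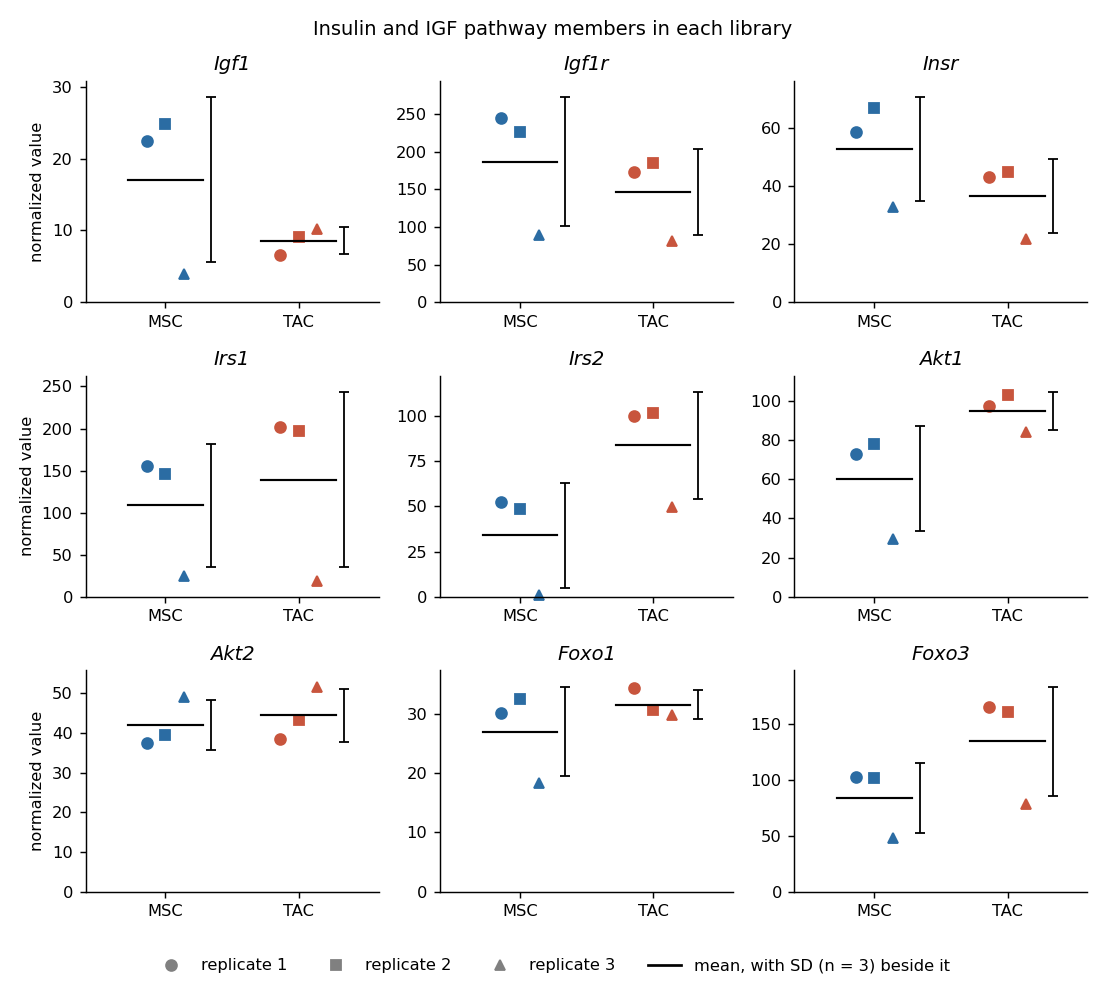
Normalized value (vertical axis, linear from 0) of each of the 9 members in the 3 MSC and 3 TAC libraries, with 1 symbol for each replicate, the group mean as a line and the SD (n = 3) as a bar beside it. Replicate 3 is the lowest of its group for Igf1r, Insr, Irs1, Irs2, Akt1, Foxo1 and Foxo3 in both groups, and Akt1 alone has no TAC library at or below an MSC library.

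The substrates, which dock PI3K to the receptors, had the largest SEs of the members. Irs2 (chr8:10984681-11008458, minus strand) was 52.5, 48.6 and 0.746 in MSC against 99.9, 102 and 49.8 in TAC. It was higher in TAC in all 3 pairs, but the lowest TAC library lay below the highest MSC library. Group means were 33.9 ± 28.8 for MSC and 83.7 ± 29.5 for TAC (SD, n = 3 each), at a log2 fold change of 2.28 (limma adjusted p 0.540, SE 1.25). The low value in MSC replicate 3 stood for 111 estimated reads, and without that library the log2 fold change was 0.65. Replicates 1 and 2 gave 0.98 and replicate 3 gave 4.86.

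Irs1 (chr1:82233101-82291416, minus strand) was 156, 146 and 25.0 in MSC against 202, 197 and 18.9 in TAC. It was higher in TAC in replicates 1 and 2 and lower in replicate 3, and both libraries of replicate 3 lay far below the others. The log2 difference over all libraries was 0.14 (limma adjusted p 0.981, SE 1.06), or 0.40 within replicates 1 and 2 against -0.38 within replicate 3. Gm9747, a gene annotated on the opposite strand at chr1:82233112-82235933, lies with all 2822 of its exon bases inside Irs1 exon sequence. It had no read in the 4 libraries of replicates 1 and 2, but 30.7 in MSC replicate 3 (4613 estimated reads) and 44.5 in TAC replicate 3 (11725 estimated reads). How the authors' counting divided reads between overlapping genes, and whether it used strand, was not given in the sources used here, so the Irs1 level is uncertain in replicate 3. The sum of both genes was 156, 146 and 55.7 in MSC against 202, 197 and 63.4 in TAC, higher in TAC in 3 of 3 pairs, where Irs1 alone was higher in 2. The log2 fold change of the sum was 0.33 (limma adjusted p 0.890, SE 0.59), or 0.40 within replicates 1 and 2 against 0.18 within replicate 3. The sum was chosen after seeing the data. Listed genes that GENCODE types as antisense, 1373 in all, had no read for 12.2% to 16.0% of them in replicates 1 and 2, for 84.2% in MSC replicate 3 and for 69.3% in TAC replicate 3. Gm9747 is typed as protein coding and went the other way, with reads in replicate 3 only. The part of the antisense genes in the Irs1 values was not tested. Gm20402 and Gm38034, which overlap Foxo1, were 1.36 to 4.40 in replicates 1 and 2 and had no read in replicate 3.

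Akt1 (chr12:112653821-112674884, minus strand), a serine and threonine kinase for growth and survival, was the member whose groups did not overlap. It was 73.1, 78.2 and 29.7 in MSC against 97.6, 103 and 83.9 in TAC. Every TAC library lay above every MSC library, and MSC replicate 3 lay well below the other 5. Group means were 60.3 ± 26.7 for MSC and 94.8 ± 9.74 for TAC (SD, n = 3 each), a ratio of 1.57, at a log2 fold change of 0.76 (limma adjusted p 0.528, SE 0.40). Replicates 1 and 2 gave 0.40 and replicate 3 gave 1.47, and without MSC replicate 3 the value was 0.32. Among the 9 members 1 thus had groups that did not overlap, a pattern shown by 24.5% of the 15391 genes tested. Akt2 (chr7:27591552-27640826, plus strand), the kinase best known for insulin-driven glucose uptake, was 37.5, 39.4 and 49.2 in MSC against 38.4, 43.3 and 51.6 in TAC. Its difference had the smallest SE of the members, with a log2 fold change of 0.08 (limma adjusted p 0.954, SE 0.27) and a 95% interval from -0.55 to 0.71. It was close to 0 in either set, at 0.083 in replicates 1 and 2 and 0.070 in replicate 3, and turned to -0.033 without TAC replicate 3. It was also the member with the highest value of each group in replicate 3.

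Foxo3 (chr10:42181841-42276755, minus strand), a FOXO factor tied to quiescence and stress resistance in stem cells, was 102, 102 and 48.0 in MSC against 165, 161 and 78.5 in TAC. It was higher in TAC in all 3 pairs, and both libraries of replicate 3 lay below those of replicates 1 and 2. Its log2 fold change came to 0.68 (limma adjusted p 0.609, SE 0.44), with 0.67 within replicates 1 and 2 against 0.70 within replicate 3, the closest match between the sets beside Akt2. Foxo1 (chr3:52268336-52353221, plus strand), the FOXO factor best known for insulin-repressed transcription, was 30.0, 32.5 and 18.4 in MSC against 34.2, 30.6 and 29.7 in TAC. The groups overlapped and only MSC replicate 3 stood apart. TAC minus MSC was 0.26 on the log2 scale (limma adjusted p 0.820, SE 0.31), from 0.050 in replicates 1 and 2 and 0.67 in replicate 3. Foxo4, a further member of the family, was 15.9 to 19.4 in all 6 libraries.

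Over the 6 libraries no member passed the test. At a limma adjusted p under 0.05, 0 of 9 members were called, where 0.422% of all genes tested were, and at an unadjusted p under 0.05 again 0 of 9, against 11.9% of all genes. With limma voom on the estimated reads, 0 members passed the adjusted threshold, which 23 of all genes tested did. Of the members 1, Irs2, passed the unadjusted threshold, and the share of all genes that did so in that fit was not taken. The log2 fold change of Irs2 was 4.12 with voom, 2.28 in the main fit and 1.41 in limma with a pseudocount of 10. With the replicate number as a block, 0 passed the adjusted threshold, which 1.49% of all genes did, and 3 passed the unadjusted one, which 20.4% did. These were Insr, Akt1 and Foxo3, and the block brought the SE of Foxo3 from 0.44 to 0.12 and its limma adjusted p to 0.0759. In replicates 1 and 2 only, 7 members passed the adjusted threshold, all but Akt2 and Foxo1, in a fit whose error is the spread between libraries close to each other and in which 44.2% of all genes passed. Of these, Igf1, Igf1r and Insr were lower in TAC and Irs1, Irs2, Akt1 and Foxo3 higher. The direction was the same in replicates 1 and 2 as in replicate 3 for 7 members, against 61.2% of all genes, and the same in all 3 pairs for 6 members, against 51.0%. The difference itself differed between the sets for 6 members, all but Insr, Akt2 and Foxo3, by the limma interaction at an adjusted p under 0.05, as it did for 57.2% of all genes. The error of the interaction is again the spread between replicates 1 and 2, and replicate 3 has 1 library in each group.

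**Figure D2:**
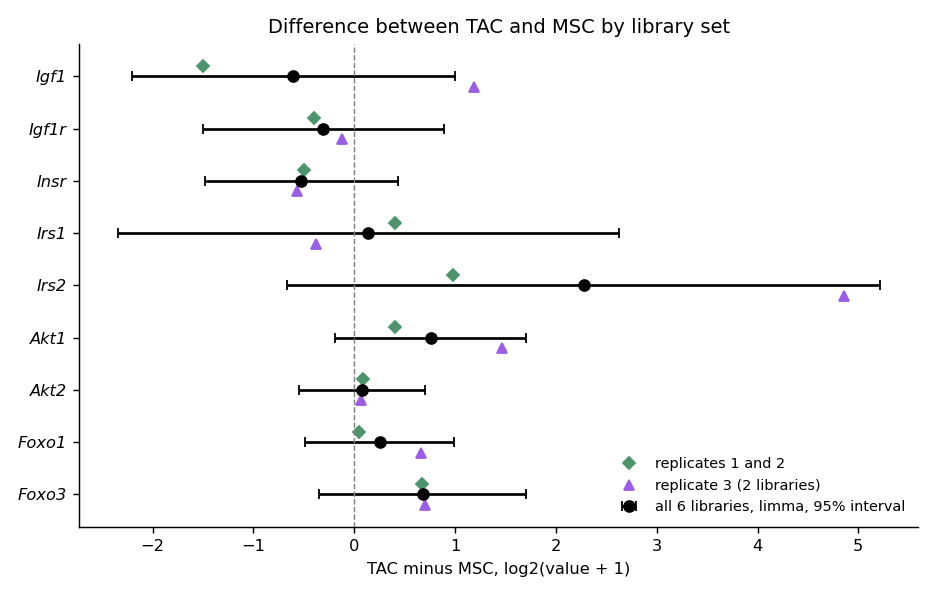
TAC minus MSC on the log2(value + 1) scale (horizontal axis) for each member, over all 6 libraries with the 95% interval of limma (black circles), in replicates 1 and 2 (diamonds) and in replicate 3 (triangles, a difference of 2 libraries). Every interval includes 0. The 2 sets lie close together for Insr, Akt2 and Foxo3 and on opposite sides of 0 for Igf1 and Irs1.

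Replicate 3 differed from replicates 1 and 2 within both groups, and the members differed widely in how much. With the group as a term, 6 members were lower in replicate 3 at a limma adjusted p under 0.05, as were 29.7% of all genes, and none was higher. The shift was -2.94 (SE 0.19) for Irs1, -2.94 (SE 0.82) for Irs2, -1.26 (SE 0.11) for Igf1r, -1.06 (SE 0.09) for Foxo3, -0.95 (SE 0.13) for Insr and -0.79 (SE 0.25) for Akt1 on the log2 scale. The median of the members was -0.98 and that of all genes tested -0.35. The ratio of replicate 3 to the mean of replicates 1 and 2 was 0.376 in MSC and 0.454 in TAC for Igf1r, 0.520 and 0.495 for Insr, and 0.469 and 0.481 for Foxo3. It was 0.0147 in MSC and 0.494 in TAC for Irs2, and 0.165 in MSC and 1.31 in TAC for Igf1. With Gm9747 added, the shift of Irs1 was -1.53 (SE 0.10).

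**Figure D3:**
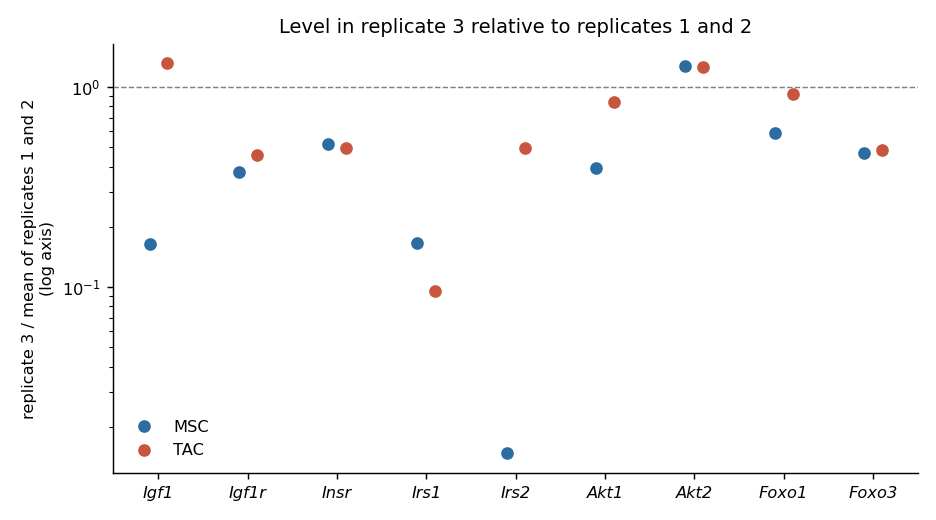
Level of each member in replicate 3 divided by the mean of replicates 1 and 2 (vertical axis, log scale), for MSC and TAC separately, with a dashed line at 1. Akt2 is above 1 in both groups, Igf1 in TAC only, and Irs2 in MSC is the lowest point at 0.0147.

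Ratios between related genes, taken within a library after 1 was added to each value, depend little on how the library was scaled. They hold gene length, so only their differences between libraries are read. Insr to Igf1r was the steadiest, at -2.04, -1.75 and -1.41 on the log2 scale in MSC against -1.98, -2.02 and -1.85 in TAC (difference -0.22, exact permutation p 0.4). Irs1 to Irs2 was 1.55, 1.57 and 3.90 in MSC against 1.01, 0.95 and -1.35 in TAC. The groups did not overlap and every TAC library was lower, with a difference of -2.14 (exact permutation p 0.1, the smallest that 3 against 3 can give), or -1.36 without MSC replicate 3. It carries the uncertainty of Irs1 in replicate 3. Igf1 to Igf2 also had groups that did not overlap, at -4.57, -4.47 and -7.02 in MSC against -3.47, -3.02 and -3.62 in TAC (difference 1.98, exact permutation p 0.1), and the difference was 1.15 without MSC replicate 3. Akt1 to Akt2 was 0.94, 0.97 and -0.71 in MSC against 1.32, 1.23 and 0.69 in TAC, higher in TAC in 3 of 3 pairs (difference 0.68, exact permutation p 0.3). The groups overlapped, and without MSC replicate 3 the difference was 0.12. Foxo1 to Foxo3 was -1.74, -1.62 and -1.34 in MSC against -2.24, -2.36 and -1.37 in TAC, lower in TAC in 3 of 3 pairs but overlapping (difference -0.42, exact permutation p 0.3). All tests were two-sided, and over the 5 ratios the smallest Benjamini-Hochberg adjusted p of the permutation tests was 0.25.

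**Figure D4:**
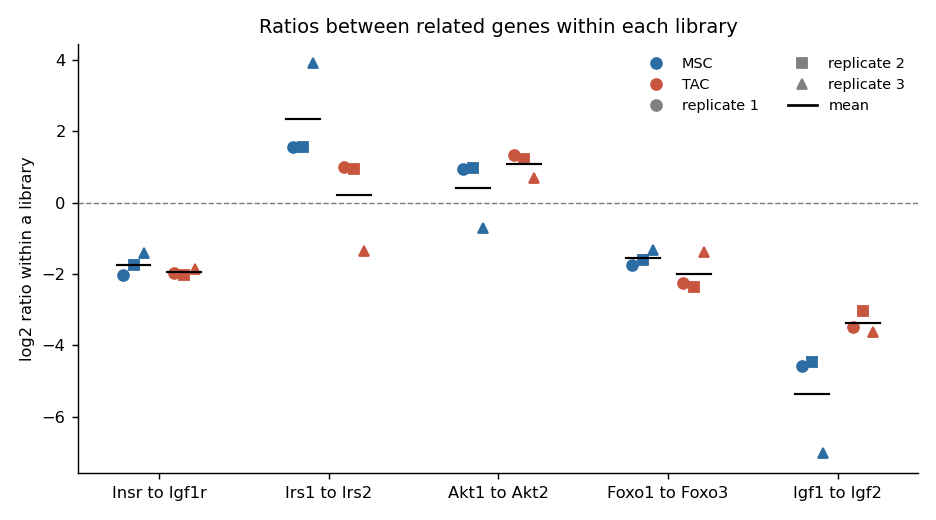
Log2 ratio of 2 genes within each library (vertical axis, each value plus 1), for 5 ratios, with MSC and TAC in separate colors, 1 symbol for each replicate and the group mean as a line. Irs1 to Irs2 and Igf1 to Igf2 have no overlap between the groups, and Insr to Igf1r stays between -2.04 and -1.41 in all 6 libraries.

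The 7 lists of other genes of the pathway held 71 genes, of which 67 were listed and 65 tested. By limma adjusted over all genes, 1 of 65 passed, Igf2, lower in TAC, and at an unadjusted p under 0.05 there were 7 lower and 3 higher in TAC, beside 0.422% and 11.9% of all genes at these thresholds. The median log2 fold change was -0.08 over the lists and 0.03 over all genes. Leaving out MSC replicate 3 gave an adjusted count of 4, beside 292 of the 15391 genes tested. Leaving out replicate 1 or 2 of either group gave 0, with 8 genes at an unadjusted p under 0.05 in 3 of these fits and 6 in the one without TAC replicate 2, so the call of Igf2 was lost without any 1 of these 4 libraries, as was every call over all genes. The log2 fold change of Igf2 was -2.62 to -2.45 in these fits. With the replicate block, Igf2, Tbc1d4 and Txnip passed.

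Among the 3 ligands and other receptors tested, Insrr, an orphan receptor of the insulin receptor family, was 8.26, 11.5 and 16.3 in MSC against 0.460, 1.15 and 0.663 in TAC, with no overlap (log2 fold change -2.86, limma adjusted p 0.0883, SE 0.51). Igf2r, which clears IGF2, differed by -0.66 (limma adjusted p 0.700), and by -0.086 without TAC replicate 3. Of 12 adaptors and feedback genes, none passed after adjustment and 2 before it, both lower in TAC. They were Gab1, a docking protein beside the IRS proteins, at -1.03 (SE 0.34), and Enpp1, a membrane pyrophosphatase that can inhibit the insulin receptor, at -1.12 (SE 0.45). Enpp1 was at -0.73 without MSC replicate 3, with -0.44 in replicates 1 and 2 and -2.48 in replicate 3.

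Of 12 genes for PI3K subunits and lipid phosphatases, none passed after adjustment and 1 before it. That was Pik3r3, a regulatory subunit, at 4.11, 6.34 and no read in MSC against 13.6, 13.8 and 13.9 in TAC (log2 fold change 2.14, limma adjusted p 0.342, SE 0.77). Without MSC replicate 3 it was 1.27. The catalytic subunit Pik3ca was 34.5, 38.0 and 35.4 in MSC against 46.5, 38.7 and 44.3 in TAC, a log2 fold change of 0.26 without overlap. The main regulatory subunit Pik3r1 was 215, 233 and 44.7 in MSC against 247, 255 and 75.8 in TAC. Each TAC library thus exceeded the MSC library of the same number. The log2 fold change of Pik3r1 was 0.36 (limma adjusted p 0.913), and -0.41 without MSC replicate 3. That fit keeps the low TAC replicate 3, so the shift between library sets enters its difference. Taken set by set, the values were 0.16 (replicates 1 and 2) and 0.75 (replicate 3).

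Of 8 genes for AKT, its upstream kinases and the related SGK kinases, none passed after adjustment and 2 before it, in opposite directions. Sgk1, which shares targets with AKT, was 13.3, 12.9 and 30.5 in MSC against 6.02, 3.72 and 2.20 in TAC (log2 fold change -1.96, limma adjusted p 0.195, SE 0.53). Its relative Sgk3 was 28.8, 25.4 and 0.513 in MSC against 77.8, 77.3 and 67.8 in TAC (log2 fold change 2.83, limma adjusted p 0.359, SE 1.07). Neither gene had groups that overlapped, and without MSC replicate 3, where Sgk3 was nearly absent, its log2 fold change was 1.42 and passed the test (limma adjusted p 0.0389). Pdpk1, which phosphorylates AKT, differed by 0.53 (limma adjusted p 0.872), but by -0.45 without MSC replicate 3 and by -0.089 in replicates 1 and 2.

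Of 11 direct AKT substrates and mTORC1 genes, 0 passed and 2 had an unadjusted p under 0.05. Tbc1d4, an AKT substrate that controls glucose transporter traffic, was 426, 420 and 334 in MSC against 130, 131 and 79.6 in TAC. Its log2 difference was -1.81 (limma adjusted p 0.0883, SE 0.33), and with the replicate block it passed, at 0.0323. Eif4ebp1, the translation repressor held off by mTORC1, was 5.22, 6.55 and 5.42 in MSC against 10.3, 11.2 and 18.9 in TAC, at 1.06 (limma adjusted p 0.385, SE 0.42).

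Among 18 tested FOXO targets none passed after adjustment and 1 passed before it, and the median log2 fold change was -0.39. That gene was Txnip, an inhibitor of glucose uptake, at 153, 134 and 257 in MSC against 48.3, 43.6 and 55.3 in TAC. Its log2 fold change came to -1.81 (limma adjusted p 0.0865, SE 0.32), and with the replicate block it passed, at 0.0442. The list median was -0.35 in replicates 1 and 2 and -0.07 in replicate 3, with 10 of 18 genes in the same direction in both, where 61.2% of all genes were. The summed pericyte and smooth muscle, endothelial and Schwann cell markers were likewise higher in every MSC library than in every TAC library. So were the summed dental mesenchyme genes. The named genes with that pattern were Igf2, Insrr, Tbc1d4, Txnip, Gab1, Enpp1 and Sgk1. The summed dental epithelium markers and Top2a were higher in every TAC library, as Akt1, Sgk3, Pik3r3, Eif4ebp1 and Pik3ca were. The part of these cells in these values was not tested.

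**Figure D5:**
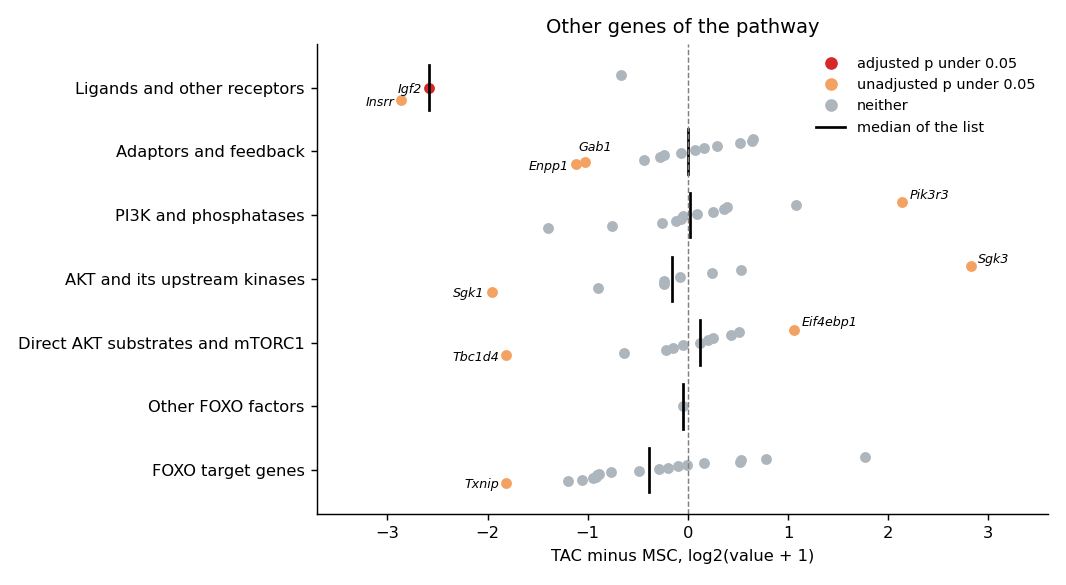
TAC minus MSC on the log2(value + 1) scale (horizontal axis) for the 65 tested genes of 7 pathway lists (rows), with 1 point for each gene and a line at the list median. Igf2 is the point past the adjusted threshold, and the 9 further named points have an unadjusted p under 0.05 in limma.

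Levels of the members can be set side by side only per length. Per kilobase of merged GENCODE exons, Akt1 was the highest member in both group means, at 14.7 ± 6.51 for MSC and 23.1 ± 2.38 for TAC (SD, n = 3 each). Irs1, Igf1r and Foxo3 followed in MSC at 11.9 ± 7.96, 11.1 ± 5.08 and 11.1 ± 4.13 (SD, n = 3), and these neighbors did not differ beyond their spread. Foxo3 exceeded Igf1r in all 3 TAC libraries and in 1 MSC library. In TAC the values were 17.8 ± 6.46 for Foxo3, 15.2 ± 11.4 for Irs1, 13.2 ± 4.66 for Irs2 and 8.71 ± 3.37 for Igf1r (SD, n = 3). Irs1 lay above Foxo3 in TAC replicates 1 and 2, at 22.0 and 21.5 against 21.8 and 21.3, and below it in TAC replicate 3, at 2.07 against 10.4, where its level is uncertain. Irs2 was at 5.37 ± 4.56 in MSC (SD, n = 3), with 0.118 in MSC replicate 3. Akt2 stood at 5.89 ± 0.877 in MSC and 6.23 ± 0.941 in TAC (SD, n = 3). Insr and Foxo1 were at 3.83 ± 1.30 and 3.11 ± 0.872 in MSC, in that order in all 3 libraries, and at 2.66 ± 0.933 and 3.64 ± 0.276 in TAC, in the reverse order in all 3 (SD, n = 3). Igf1 was the lowest member in both means, at 1.72 ± 1.16 in MSC and 0.867 ± 0.188 in TAC (SD, n = 3). Merged exons count every annotated isoform, so a gene that uses a short isoform is understated.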

How the data were processed

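RNA from 3 MSC and 3 TAC samples was sequenced as single-end reads. Per the labels and the methods, the authors called bases with CASAVA 1.8.2, trimmed the reads, aligned them to mm10 with TopHat2 2.0.8 and normalized them, naming RPKM and Partek. Neither the counter nor its handling of strand was given in the sources used here. The deposited values are a signal and not RPKM: in each library the lowest value is shared by many genes and 67.7% to 74.2% of values worth under 100 reads are whole multiples of it within 0.05 of a read, so 1 read is worth the same in every gene. The planned test had assumed RPKM and suits this unit too. Estimated reads are the value divided by the lowest value, minus 1, and are partly fractional, so no count model was used as the main test.

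Values were taken as log2(value + 1) and fitted with limma 3.58.1 in R 4.3.3 (empirical Bayes with trend, two-sided, Benjamini-Hochberg adjustment, threshold 0.05) over the 15391 genes whose mean was 1 or more. A fold change on this scale understates that of low genes. The difference between library sets was tested as an interaction, with 2 residual degrees of freedom. Exact permutation tests used scipy 1.17.1. Same-numbered samples had deviations from their group means that correlated at 0.477, 0.465 and 0.517 across genes, which meets the condition for a replicate block. Crossed pairs of replicates 1 and 2 gave 0.462 and 0.480, so the shared deviation is that of replicate 3 against both others and the numbers do not tell replicates 1 and 2 apart. Replicates 1 and 2 differed by more than sampling noise, with a mean chi-square per gene of 10.5 in MSC and 8.59 in TAC where noise alone gives about 1, and were kept apart. The main fit was tested on simulated data drawn without a shift of replicate 3, so that test does not bear on the spread between the library sets. Of the columns, 0 belonged to other samples. The p-values measure the spread between 3 samples a group, 1 mouse each by the methods. The members and gene lists were chosen with earlier results of these data known, and named genes outside the members are those with an unadjusted p under 0.05, with Foxo4, Igf2r, Pdpk1, Pik3ca and Pik3r1. Some genes that the rule also covered are not reported here. Alternatives were other pseudocounts, filters, scalings and variance models, the replicate block, voom and samples left out.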

Additional observations from a re-analysis of the deposited data

Results flagged for a closer look

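There were 6 members with a TAC minus MSC difference that itself differed between the library sets, by the limma interaction adjusted over all genes, as did 57.2% of all genes tested. The interaction, replicate 3 less replicates 1 and 2 on the log2 scale, was 3.88 for Irs2 (adjusted p 3.96e-06), 2.69 for Igf1 (0.000246), 1.07 for Akt1 (0.000175), 0.62 for Foxo1 (0.0185), 0.27 for Igf1r (0.0436) and -0.78 for Irs1 (0.000449). The difference turned direction for Igf1 and Irs1 and kept it for the other 4. When Gm9747 was added to Irs1, its interaction was -0.22 (adjusted p 0.0798). The error of this test is the spread between replicates 1 and 2, and replicate 3 has 1 library in each group. Without the variance trend 4 members passed, Igf1, Irs1, Irs2 and Akt1, and the share of all genes that passed in that fit was not taken.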

How the results depend on the processing

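The count of 0 members past the adjusted threshold held under 15 of 16 alternatives, replicates 1 and 2 only being the exception with 7, where the log2 fold changes were -1.50 for Igf1, -0.40 for Igf1r, -0.50 for Insr, 0.40 for Irs1, 0.98 for Irs2, 0.40 for Akt1 and 0.67 for Foxo3. With samples left out in turn, the log2 fold change ran from -1.38 to -0.18 for Igf1, -0.77 to 0.071 for Igf1r, -0.83 to -0.20 for Insr, -0.71 to 1.25 for Irs1, 0.65 to 3.12 for Irs2, 0.32 to 1.00 for Akt1, -0.033 to 0.19 for Akt2, 0.0098 to 0.41 for Foxo1 and 0.32 to 1.03 for Foxo3. Igf1r turned direction without TAC replicate 3, and Akt2 did too, while Irs1 did when MSC replicate 3 or replicate 1 or 2 of TAC was left out. In replicate 3 alone Igf1 was 1.19 and Irs1 -0.38, and voom gave Igf1 0.091. The count over all genes, 65, was 38 with a pseudocount of 0.1, 29 without the variance trend, 229 with the replicate block, 6796 in replicates 1 and 2 only, 23 with voom and 0 to 292 with samples left out. The count over the pathway lists, 1, was 2 with quantile normalization, 0 without the variance trend, 3 with the block, 30 in replicates 1 and 2 only and 0 to 4 with samples left out. Pdpk1 turned direction in replicates 1 and 2 only (-0.089) and with samples left out (-0.45 to 1.10), as did Pik3r1 with samples left out (-0.41 to 0.93), and Foxo4 in replicate 3 alone (0.023) and with samples left out (-0.10 to 0.033). With samples left out, the difference in log2 ratio ran from -0.73 to -0.24 for Foxo1 to Foxo3, 0.12 to 0.96 for Akt1 to Akt2, 1.15 to 2.42 for Igf1 to Igf2, -2.54 to -1.36 for Irs1 to Irs2 and -0.37 to -0.058 for Insr to Igf1r, nearest 0 without MSC replicate 3 in the last 4. For genes that are no member, the values by set were chosen after seeing the data. With 1 library left out, the groups hold the 2 library sets in unequal shares, so the shift between sets enters their difference. Other causes of these changes were not tested. The block changed no member's call at the adjusted threshold. Replicate 3 was the deepest library of each group and also the one with the most genes without a read.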

Other observations

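The genes whose pattern over the 6 libraries was most like that of Igf1, Igf1r and Irs2 were taken by Pearson correlation of log2 values among 7828 genes with a mean of at least 10. They describe these 6 libraries, which share 2 regions and 2 library sets. For Igf1r they were Mccc1, an enzyme of leucine breakdown, Rgl1, a regulator of Ral GTPases, and Baz2b, a chromatin protein, at 0.9993, 0.9990 and 0.9989. Each had its lowest values in both libraries of replicate 3. For Irs2 they were Foxn2, a forkhead factor, Slc4a7, a bicarbonate transporter, and Ddx1, an RNA helicase, at 0.9997, 0.9987 and 0.9987. Foxn2 and Slc4a7 had no read in MSC replicate 3. For Igf1 they were Usp48, Afap1l2 and the transcription factor Stat3, at 0.990, 0.989 and 0.988. Stat3 was 52.9, 46.9 and 10.9 in MSC against 18.6, 23.7 and 22.3 in TAC. As many as 629 genes had a correlation over 0.95 with Irs2, 477 with Igf1r and 38 with Igf1.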
